A study of Homo sapiens with 4 samples.

Results

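A set of 53 genes, measured by 60 array probes, was higher in the lapatinib-resistant clone of SkBr3 cells and lower in the lapatinib-resistant clone of BT474 cells, each compared with its parent cells. A probe was taken when its RefSeq gene was known, when its signal was well above background on all 4 arrays, and when the change was at least 1.3 on the log2 scale upward in SkBr3 and downward in BT474. Of 41000 probes on the array, 23680 carried a RefSeq name (16422 genes), and 16398 of these (11517 genes) were well above background on every array and could enter the set. The genes were thus chosen by their measured changes on these 4 arrays, and the values below describe them without a test.

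SkBr3 and BT474 are HER2-amplified human breast cancer cell lines, and lapatinib is a tyrosine kinase inhibitor of EGFR and HER2. The groups were parental SkBr3 cells with vehicle, a SkBr3 clone selected in rising lapatinib up to 1 μM (SkBr3/Lap), parental BT474 cells with vehicle, and a BT474 clone selected in the same way (BT474/Lap). All 4 were grown in the same DMEM/F12 medium, and total RNA of each was hybridised once, in a single Cy3 channel, to an Agilent whole-genome array. Each resistant line is 1 clone, so that clone and resistance cannot be told apart. For its protein blots the study kept such clones in 1 μM lapatinib, and its text does not say whether drug was present when the array RNA was taken. An effect of drug still on the cells can therefore not be told apart from resistance either. The sample labels number the SkBr3 clone 3 and the BT474 clone 6, whereas the study's own names give these numbers to the other line, so no number is used below. With 1 array per group there was no replicate error, no test of any change was possible, and the contrast between the lines had no residual degrees of freedom. In bulk RNA, fewer cells of a type and less RNA per cell cannot be told apart.

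The 4 arrays matched their lines. The SkBr3/Lap array correlated at r = 0.938 with parental SkBr3 and at 0.873 with parental BT474 over 25063 probes, and the BT474/Lap array at 0.969 with parental BT474 and at 0.894 with parental SkBr3. ERBB2, KRT8, KRT18, KRT19 and EPCAM were well above background on all 4 arrays, PGR only in the BT474 pair, and CDH1 (E-cadherin) was not well above background in either SkBr3 array. Of 15 markers of stromal, endothelial and blood cells, between 5 and 10 were well above background per array, with a summed signal of 1151 in parental SkBr3, 3042 in SkBr3/Lap, 1141 in parental BT474 and 956 in BT474/Lap. In SkBr3/Lap, where the set was high, the signal was 347 for COL3A1, 160 for PECAM1, 915 for CDH5 and 64.8 for PDGFRB, against 4.10, 3.43, 58.4 and 4.17 in parental SkBr3. None of these sums and signals was scaled between arrays, so that they cannot be read as changes. The 75th percentile of signal over all probes was 1115 in parental SkBr3, 2074 in SkBr3/Lap, 1158 in parental BT474 and 1681 in BT474/Lap. PTPRC, LUM, DCN, COL1A2 and HBB were well above background on no array, and the part of other cell types in the results was not tested. The SkBr3/Lap array came from a scan of its own while the other 3 shared one, so that scan and clone cannot be told apart in SkBr3. No spot was saturated.

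Several of the genes belong to programmes that tumour cells use under kinase inhibition or nutrient stress. GDF15 is a secreted stress cytokine of the TGF-beta superfamily. CBS, MTHFD1L and MARS1 act in sulphur amino acid, mitochondrial one-carbon and methionyl-tRNA metabolism, which the transcription factor ATF4 is known to regulate in the integrated stress response. EGFR is a direct target of lapatinib, and ETV4 is an ETS transcription factor known as an output of the ERK pathway.

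Promoter sequence was available in the RefSeq tables for 38 of the 53 genes, as windows from 250 bases before to 50 bases after an annotated start. The windows of 3 genes are printed below, GDF15 because the smaller of its opposite changes was the largest of the set, and MTHFD1L and MARS1 because both enzymes carried the element TGATGCAA, the core of the site known to be bound by C/EBP and ATF4 dimers. All are on GRCh38.p14, plus strand, at chr19:18385908-18386207 (GDF15), chr6:150866197-150866496 (MTHFD1L, 1 of 4 windows of this gene) and chr12:57487818-57488117 (MARS1). Capitals mark TATAAA at position -29 from the start in GDF15, TGATGCAA at -90 in MTHFD1L, and the reverse complement of TGATGCAA, TTGCATCA, at -4 in MARS1.
GDF15: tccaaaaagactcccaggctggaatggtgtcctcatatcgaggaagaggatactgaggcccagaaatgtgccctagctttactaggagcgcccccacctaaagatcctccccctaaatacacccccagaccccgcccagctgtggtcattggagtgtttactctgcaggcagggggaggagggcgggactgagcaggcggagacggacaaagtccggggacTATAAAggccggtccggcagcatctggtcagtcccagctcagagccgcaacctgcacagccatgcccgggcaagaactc
MTHFD1L: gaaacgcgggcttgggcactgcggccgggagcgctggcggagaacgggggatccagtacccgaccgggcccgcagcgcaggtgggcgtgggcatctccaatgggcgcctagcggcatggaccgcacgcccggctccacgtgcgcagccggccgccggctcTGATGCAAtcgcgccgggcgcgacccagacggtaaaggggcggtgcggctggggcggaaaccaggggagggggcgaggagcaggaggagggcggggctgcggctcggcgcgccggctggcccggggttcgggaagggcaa
MARS1: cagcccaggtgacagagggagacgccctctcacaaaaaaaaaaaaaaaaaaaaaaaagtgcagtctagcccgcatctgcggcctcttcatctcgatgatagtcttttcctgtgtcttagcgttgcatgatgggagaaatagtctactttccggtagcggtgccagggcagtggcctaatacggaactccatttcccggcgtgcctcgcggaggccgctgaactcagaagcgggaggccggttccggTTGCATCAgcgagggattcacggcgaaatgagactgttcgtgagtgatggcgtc

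TGATGCAA was searched on both strands after the genes were known, and was found in the promoters of MARS1, MTHFD1L and NCOA7, which is 7.89% of the 38 genes against 0.903% of all 15843 genes with a window. Of the motifs listed for the search earlier, TGANTCA, the AP-1 core, was present in 15.8% of the 38 genes and in 8.04% of all genes, and TATAAA in 18.4% and 12.4%. A form of the NF-κB site was in 5.26% of the genes against 9.02%, CCAAT in 36.8% against 42.1%, CACGTG in 13.2% against 10.9%, GGAATG in 21.1% against 15.6%, and GGGCGG in 86.8% against 64.3%. All were searched on both strands, and CACGTG and TGANTCA are palindromes. A gene counted when any of its windows matched, and the 38 genes had more windows per gene than all genes. By window, where windows of a gene can overlap, TGANTCA had 8.57% against 6.15%, TATAAA 11.4% against 9.47% and GGAATG 12.9% against 12.2%. TGATGCAA had 7.14% against 0.676%, CACGTG 12.9% against 8.34% and GGGCGG 71.4% against 56.3%. The NF-κB form had 2.86% against 6.97% and CCAAT 27.1% against 34.7%. The median GC content of the 70 windows of these genes was 66.8%, compared with 62.3% over all 22199 windows. A match is a description of the letters and not a site in use.

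Among the 16398 probes that could enter, 1062 (6.48%) were higher by at least 1.3 in SkBr3/Lap and 390 (2.38%) were lower by as much in BT474/Lap. The 60 probes that met both were 0.366% of all, 5.65% of the SkBr3 increases and 15.4% of the BT474 decreases. Of the SkBr3 increases, 142 (13.4%) were matched by an increase of this size in BT474, and of the BT474 decreases, 79 (20.3%) by a decrease in SkBr3. The opposite pattern, lower in SkBr3/Lap and higher in BT474/Lap, held for 103 probes of 94 genes (0.628%). The 53 genes had a median change of 2.31 in SkBr3 and -1.84 in BT474, where all 11517 genes had medians of -0.10 and -0.11, and the SkBr3 change was the larger of the pair in 37 genes.

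**Figure D1:**
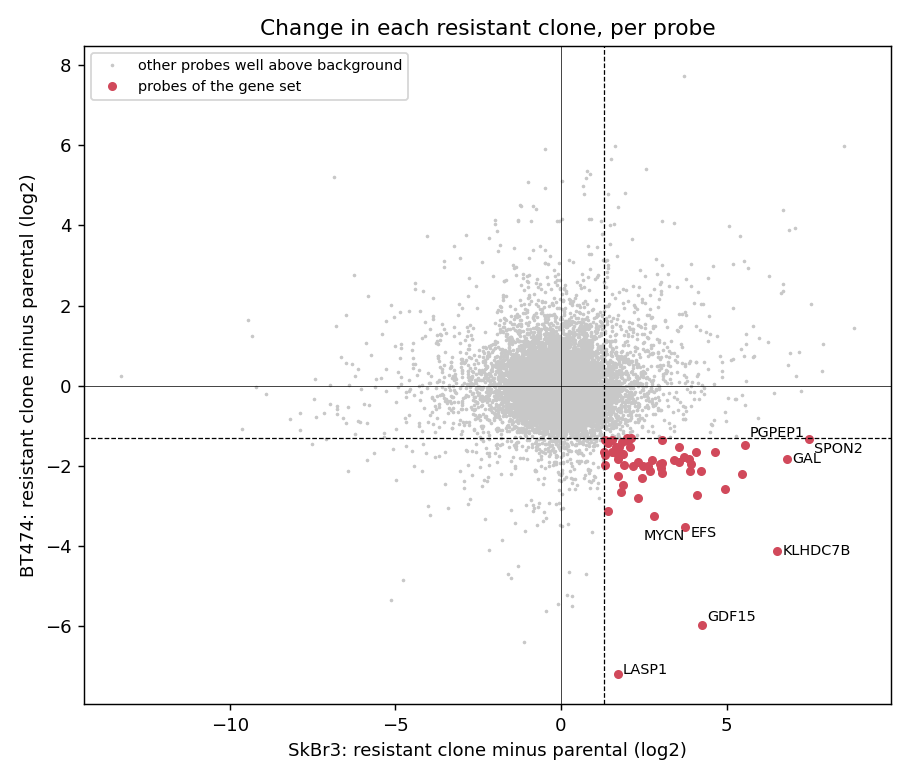
Change of each probe that was well above background on all 4 arrays, SkBr3/Lap minus parental SkBr3 (horizontal axis, log2) against BT474/Lap minus parental BT474 (vertical axis, log2). Dashed lines mark the limits of 1.3 and -1.3, and the 60 red points beyond both are the set, with GDF15, KLHDC7B and LASP1 lowest; the LASP1 value rests on a spot that the scanner software marked as non-uniform.

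Levels are given below as log2 signal relative to the 75th percentile of the same array, so that 0 is the level of a gene at that percentile. Levels are compared across arrays for the same probe only. One probe, that of EGFR, was spotted 10 times per array and the other 59 once, so spot error within an array could be measured for EGFR alone. Over the 187 probes spotted 10 times and well above background, the median standard deviation between spots was 0.06 to 0.07 per array.

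**Figure D2:**
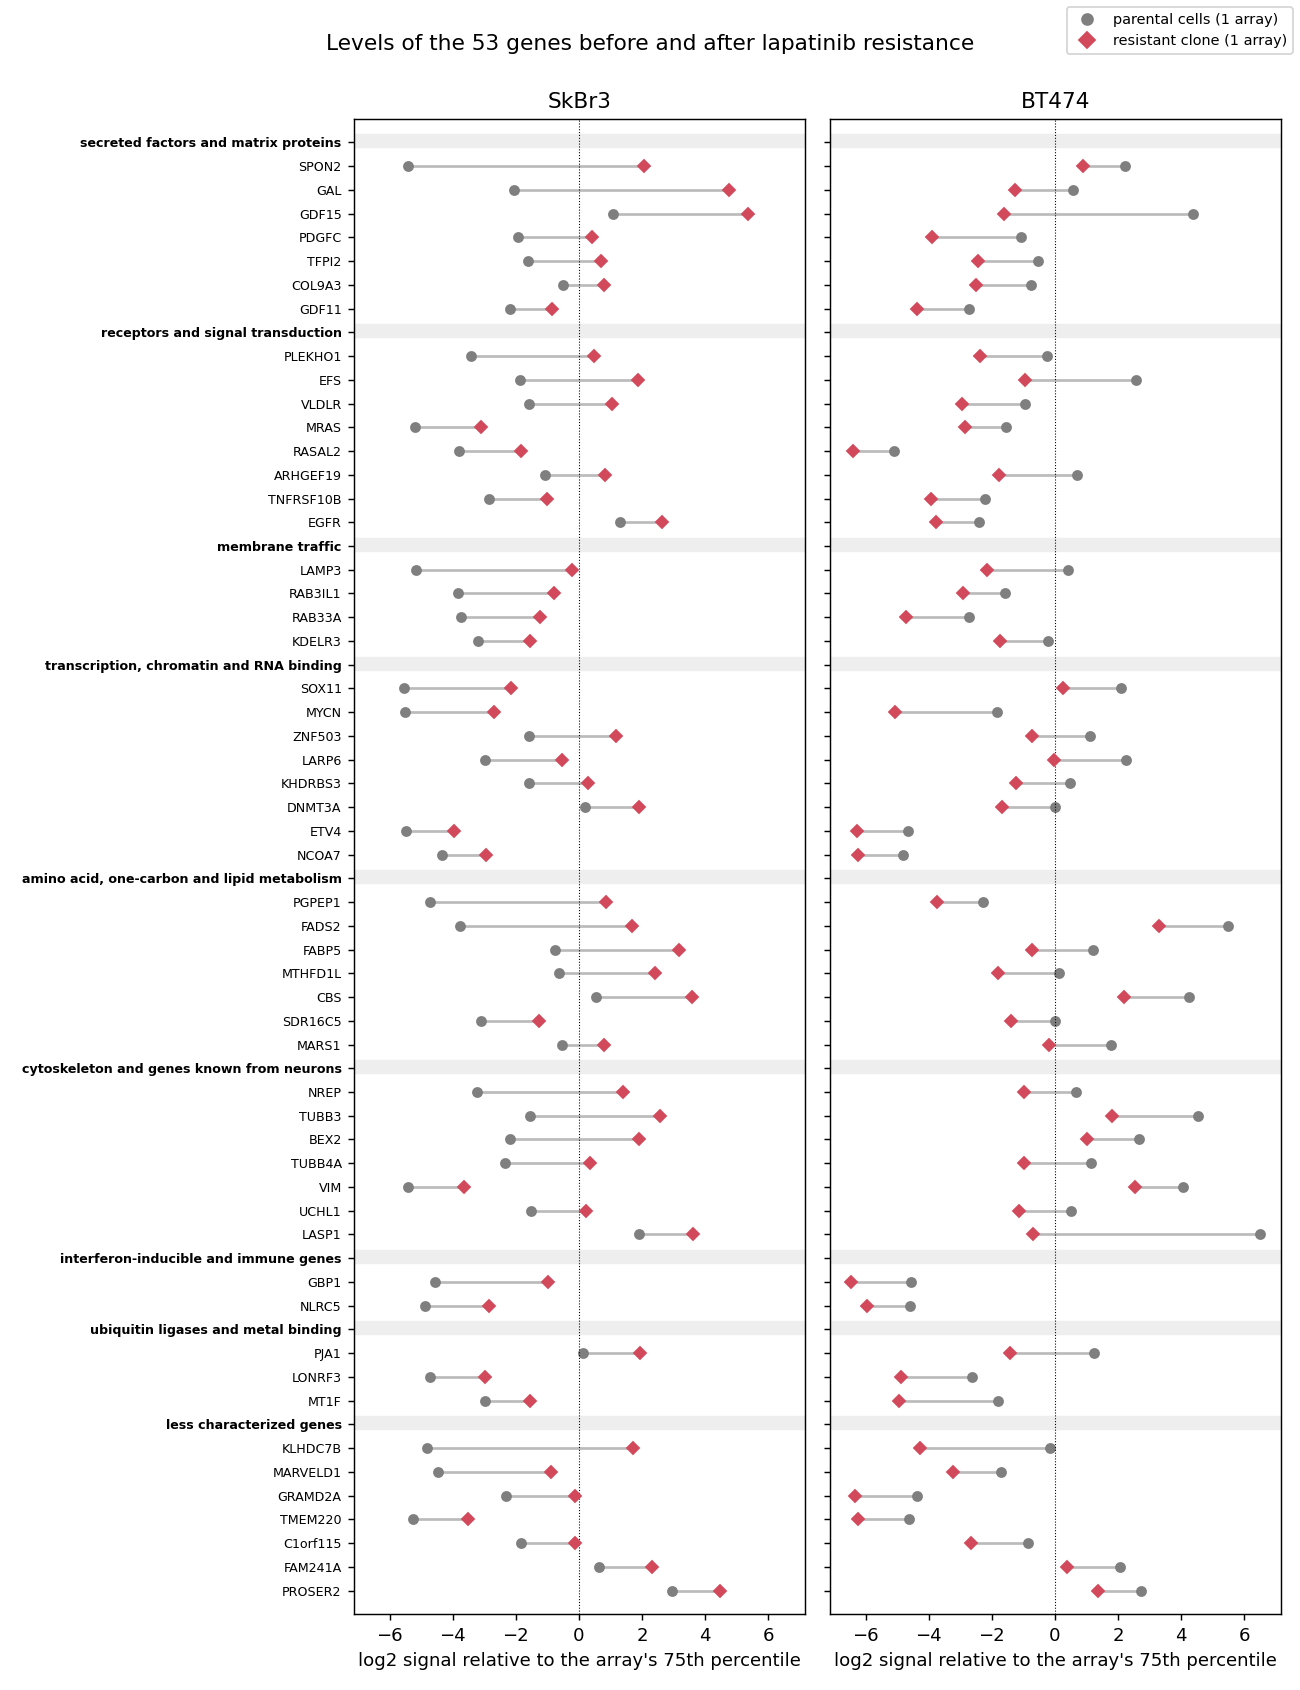
Level of each of the 53 genes (1 probe per gene, the brightest of those in the set) in parental cells (grey circles) and in the resistant clone (red diamonds), SkBr3 on the left and BT474 on the right, as log2 signal relative to the 75th percentile of the array. Every red diamond lies to the right in SkBr3 and to the left in BT474, as the selection requires, and most grey circles lie further right in BT474 than in SkBr3.

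Secreted factors and matrix proteins made up 7 genes, with changes from 1.31 to 7.48 in SkBr3 and from -5.98 to -1.32 in BT474. GDF15 stood at 1.09 in parental SkBr3, 5.36 in SkBr3/Lap, 4.38 in parental BT474 and -1.60 in BT474/Lap. It was thus 19.2-fold higher in one clone and 63.0-fold lower in the other, and its order between the lines was turned. PDGFC, a ligand of the PDGF receptor alpha, measured -1.92 and 0.40 in the SkBr3 pair and -1.07 and -3.88 in the BT474 pair, so that parental levels were within 1 log2 unit while the clones, BT474 minus SkBr3, differed by -4.28. GAL, the neuropeptide galanin, had changes of 6.82 (113-fold) and -1.83. SPON2, an extracellular matrix protein with a role in innate immunity, had the largest increase in SkBr3, 7.48, with a BT474 change of -1.32 just beyond the limit. TFPI2, a serine protease inhibitor of the matrix, changed by 2.31 and -1.89, and COL9A3, a chain of type IX collagen, by 1.32 and -1.73. GDF11, a TGF-beta family ligand, measured -2.18 and -0.87 in SkBr3 and -2.72 and -4.37 in BT474, the second lowest margin inside the limit.

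Receptors and signal transduction genes numbered 8. EGFR measured 1.31 in parental SkBr3, 2.63 in SkBr3/Lap, -2.42 in parental BT474 and -3.76 in BT474/Lap, with standard deviations over its 10 spots of 0.05, 0.04, 0.08 and 0.17. Both changes, 2.49-fold higher and 2.53-fold lower, were small within the set but larger than this spot spread, which covers technical error within an array only. The difference between the parental cells, BT474 minus SkBr3, was -3.73 for EGFR, the lowest of the set. TNFRSF10B, the TRAIL receptor DR5, stood at -2.85, -1.02, -2.21 and -3.91 in parental SkBr3, SkBr3/Lap, parental BT474 and BT474/Lap. VLDLR, a receptor of the LDL receptor family that binds apolipoprotein E and reelin, stood at -1.59, 1.05, -0.94 and -2.94 in the same order.

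EFS, an adaptor of the Cas family that binds Src kinases, measured -1.88 in parental SkBr3 and 1.88 in SkBr3/Lap, against 2.58 in parental BT474 and -0.94 in BT474/Lap. The levels of EFS were thus exchanged between the lines to within 1 log2 unit. PLEKHO1, a PH domain protein known as an inhibitor of AKT signalling, measured -3.41 and 0.48 in SkBr3 and -0.24 and -2.37 in BT474. MRAS, a RAS-related GTPase, measured -5.20 and -3.10 in SkBr3 and -1.55 and -2.85 in BT474, and lay nearest to the limit inside it, with a BT474 change of -1.303. RASAL2, a GTPase-activating protein that turns RAS off, stood at -3.81 and -1.82 in SkBr3 and at -5.09 and -6.40 in BT474. ARHGEF19, a guanine nucleotide exchange factor, changed by 1.88 and -2.47.

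Membrane traffic was represented by 4 genes. LAMP3, a lysosomal membrane glycoprotein that is inducible by hypoxia and the unfolded protein response, stood at -5.17 in parental SkBr3, -0.22 in SkBr3/Lap, 0.43 in parental BT474 and -2.15 in BT474/Lap. The LAMP3 difference was 31.1-fold upward and 5.98-fold downward. RAB33A, a RAB family GTPase, stood at -3.73 and -1.24 in SkBr3 and at -2.73 and -4.73 in BT474. RAB3IL1, an exchange factor for RAB3A, changed by 3.05 and -1.36, and KDELR3, a receptor that returns proteins to the endoplasmic reticulum, by 1.67 and -1.52. All 4 were higher in parental BT474 than in parental SkBr3.

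Transcription, chromatin and RNA binding genes numbered 8, with a median of 2.16 in SkBr3 and -1.77 in BT474. MYCN, a MYC family transcription factor, stood at -5.50 in parental SkBr3, -2.69 in SkBr3/Lap, -1.84 in parental BT474 and -5.08 in BT474/Lap. At this probe each clone thus held a level within 1 log2 unit of the other line's parent. Its other probe gave -2.61, -2.11, -2.40 and -3.17, where the parental lines differed by 0.20 only and had no levels to exchange. ETV4 measured -5.49, -3.96, -4.64 and -6.28 in the same order, near the low end of the range on all arrays. SOX11, a transcription factor of neural development, had a pair of probes in the set. Its brighter probe measured -5.54 and -2.14 in SkBr3 and 2.09 and 0.25 in BT474, with changes of 3.40 and -1.84, and the dimmer one changed by 1.91 and -1.98. SOX11 thus stayed higher in BT474/Lap than in SkBr3/Lap.

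LARP6, an RNA-binding protein known to bind type I collagen mRNAs, measured -2.98 and -0.52 in SkBr3 and 2.27 and -0.03 in BT474, and also stayed higher in the BT474 clone. DNMT3A, a de novo DNA methyltransferase, changed by 1.73 and -1.67, ZNF503, a zinc finger repressor, by 2.75 and -1.86, and KHDRBS3, a splicing regulator, by 1.86 and -1.70. NCOA7, a nuclear receptor coactivator, had a smaller pair of changes of 1.42 and -1.43.

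Amino acid, one-carbon and lipid metabolism comprised 7 genes, all of which were higher in parental BT474 than in parental SkBr3 at the brightest probe in the set. For MTHFD1L this depended on the probe, since the parental difference, BT474 minus SkBr3, was 0.75 there and -1.91 at a bright probe outside the set. CBS, which condenses homocysteine with serine, had 2 probes in the set. The brighter one measured 0.55 in parental SkBr3, 3.59 in SkBr3/Lap, 4.24 in parental BT474 and 2.19 in BT474/Lap, and the second gave -3.59, -0.53, 0.05 and -2.13. Their changes of 3.03 and -2.05 and of 3.06 and -2.18 were nearly equal, although the human genome also carries a CBS-like copy whose RNA these probes may share. MTHFD1L, the mitochondrial formyltetrahydrofolate synthetase whose promoter is printed above, measured -0.63, 2.41, 0.12 and -1.80 at its brighter probe and changed by 2.99 and -1.96 at its other probe in the set. MARS1, the cytosolic methionyl-tRNA synthetase with a TGATGCAA match at its start, measured -0.53 and 0.79 in SkBr3 and 1.77 and -0.20 in BT474. PGPEP1, a pyroglutamyl peptidase, changed by 5.57 and -1.47.

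FADS2, the delta-6 fatty acid desaturase, stood at -3.78 in parental SkBr3, 1.69 in SkBr3/Lap, 5.50 in parental BT474 and 3.29 in BT474/Lap. The level in BT474/Lap was therefore still above that of SkBr3/Lap. FABP5, a cytosolic fatty acid-binding protein, was the gene with most probes in the set, 4, which gave changes of 3.71 to 4.22 in SkBr3 and of -2.13 to -1.78 in BT474. Its brightest probe measured -0.75 and 3.16 in SkBr3 and 1.22 and -0.73 in BT474. FABP5 has processed pseudogenes, so its probes may measure other copies too, and they share the RNA of each array. FABP6 was not well above background in parental BT474, and FABP1, FABP2, FABP3 and FABP4 were not well above background on any array. SDR16C5, a retinol dehydrogenase, changed by 1.83 and -1.40.

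Cytoskeletal genes and genes known from neurons numbered 7 and were all higher in parental BT474 than in parental SkBr3. TUBB3, the neuronal class III beta-tubulin, measured -1.54 in parental SkBr3, 2.56 in SkBr3/Lap, 4.54 in parental BT474 and 1.81 in BT474/Lap. TUBB4A, another neuronal beta-tubulin, measured -2.34, 0.36, 1.16 and -0.97 in the same order. VIM, the intermediate filament vimentin, stood at -5.40 and -3.64 in SkBr3 and at 4.07 and 2.55 in BT474, the widest gap between the parental lines in the set, 9.47. Even after both changes, VIM was 6.19 higher in BT474/Lap than in SkBr3/Lap. UCHL1, a neuronal deubiquitinase, changed by 1.75 and -1.67, BEX2 by 4.08 and -1.65, and NREP, a protein of regenerating neurons, by 4.64 and -1.65.

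LASP1, an actin-binding LIM and SH3 domain protein, measured 1.90 and 3.62 in SkBr3 and 6.50 and -0.69 in BT474, a change of -7.20 that was the largest decrease of the set. Its spot on the BT474/Lap array was marked as a non-uniformity outlier, and no other probe of the set carried an outlier mark on any array. Without that spot LASP1 had no value and left the set.

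Interferon-inducible and immune genes were GBP1, an interferon-inducible GTPase, and NLRC5, a transactivator of MHC class I genes. GBP1 measured -4.55 and -0.97 in SkBr3 and -4.57 and -6.47 in BT474, with a signal of 19.0 in BT474/Lap. NLRC5 stood at -4.88, -2.86, -4.58 and -5.94. Of the other guanylate-binding proteins, GBP2 changed by 3.27 and 0.87 and GBP3 by 0.76 and 1.32 at its brighter probe, so that both were higher in the BT474 clone, where GBP1 was lower. GBP6 changed by -0.15 and -1.15, and GBP4 by -0.18 and 0.03 at the probe that was well above background. PJA1 and LONRF3, RING finger ubiquitin ligases, changed by 1.81 and -2.64 and by 1.72 and -2.24. MT1F, a metallothionein that binds zinc and copper, measured -2.98 and -1.56 in SkBr3 and -1.81 and -4.93 in BT474. The metallothioneins MT1B, MT1E, MT1H, MT1X and MT2A, which are closely related in sequence, had changes between -0.42 and -0.12 in SkBr3 and between 1.02 and 1.24 in BT474, so that they were higher in BT474/Lap, where MT1F was lower. MT1A changed by -0.23 and 0.08, and MT1G by 0.14 and 0.62 at one probe and by -0.34 and 1.195 at the other. Probes of such related copies may share a target, and the MT1F values are uncertain.

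Of the 7 less characterized genes, KLHDC7B, a kelch domain protein, was next to GDF15 by the smaller of its changes. It measured -4.83 in parental SkBr3, 1.70 in SkBr3/Lap, -0.15 in parental BT474 and -4.28 in BT474/Lap, 92.3-fold higher and 17.4-fold lower. C1orf115, an open reading frame on chromosome 1, had 2 probes in the set. Its brighter probe measured -1.84, -0.12, -0.84 and -2.66, and the dimmer one changed by 2.10 and -1.53. PROSER2 stood at 2.95 and 4.48 in SkBr3 and at 2.73 and 1.38 in BT474. MARVELD1 changed by 3.58 and -1.51, TMEM220 by 1.74 and -1.64 and FAM241A by 1.66 and -1.69. GRAMD2A stood at -2.30 and -0.11 in SkBr3 and at -4.36 and -6.34 in BT474.

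The selection fixed the sum of both shifts, at least 1.3 each, but not which line was the higher. Among parental cells 44 of the 53 genes (83.0%) were higher in BT474 than in SkBr3, compared with 48.0% of all 11517 genes, and 37 were higher by at least 1 log2 unit (69.8%, compared with 15.7%). Among the clones 48 of 53 (90.6%) were higher in SkBr3/Lap than in BT474/Lap, compared with 52.9% of all genes. The median difference, BT474 minus SkBr3, was 2.06 in parental cells and -2.74 in the clones, and -0.05 and -0.08 over all genes. The same 4 values enter both the selection and this order, so that the order is no independent result.

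The order of the lines was turned in 39 genes, and by at least 1 log2 unit on both sides in 27 of them. In 12 genes each clone came within 1 log2 unit of the other line's parental cells, namely EFS, MYCN, ARHGEF19, ZNF503, C1orf115, LONRF3, KHDRBS3, UCHL1, FAM241A, ETV4, RAB3IL1 and MARS1. These counts hold for the probe in the set, and the parental lines were nearly equal at the other MYCN probe. SkBr3 was higher before and after in 9 genes, among them EGFR, GBP1, DNMT3A and RASAL2. BT474 was higher before and after in 5, LARP6, FADS2, SOX11, VIM and MRAS.

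**Figure D3:**
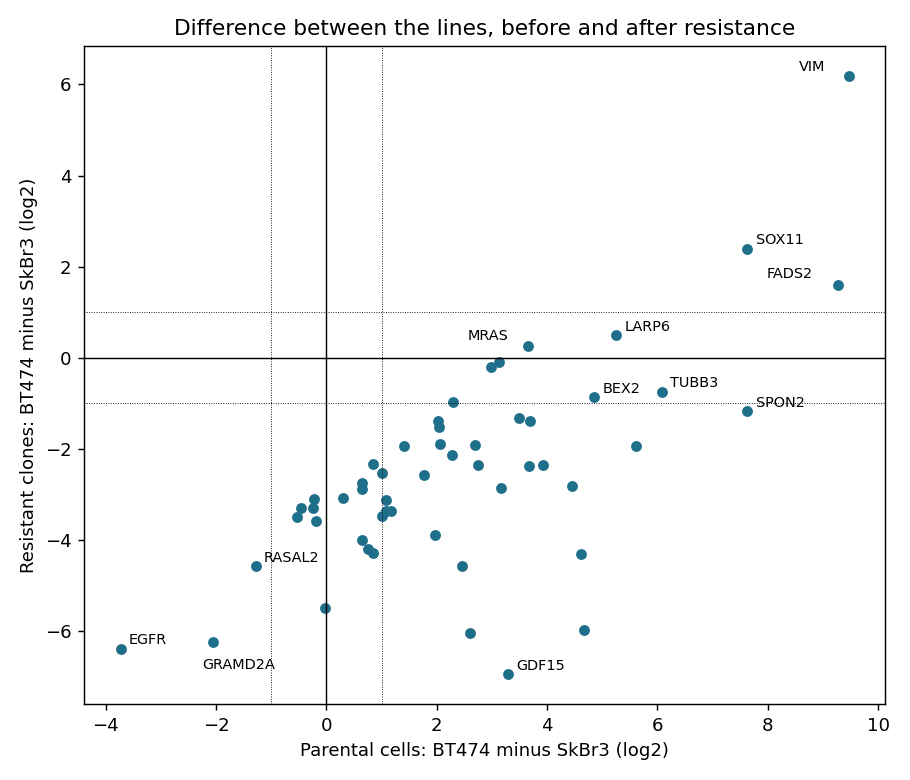
Difference between the lines for each of the 53 genes, BT474 minus SkBr3, in parental cells (horizontal axis, log2) and in the resistant clones (vertical axis, log2). Solid lines mark no difference and dotted lines 1 log2 unit; 39 genes lie in the lower right, 9 in the lower left (EGFR lowest in parental cells) and 5 in the upper right (VIM highest), and the selection places every point at least 2.6 below the diagonal.

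The 53 genes had 87 probes on the array, and 25 genes had 1 probe. The 5 genes with several probes in the set were CBS, FABP5, MTHFD1L, SOX11 and C1orf115. A further 27 probes of 24 genes did not meet the rule, of which 12 (11 genes) had a signal well above background on each array. These 12 share the RNA and the arrays with the set and are not replicates. Both directions were kept in 10 of the 12, but only the MTHFD1L probe changed by at least 1 log2 unit in both lines (2.79 and -1.15). TNFRSF10B kept its directions at a brighter probe with changes of 0.96 and -1.93, MARS1 at a far brighter one with 0.44 and -1.29, and FAM241A with 0.89 and -1.28.

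At the other bright probe of TUBB3 the changes were 0.68 and -0.74, compared with 4.10 and -2.73 at the probe in the set. MYCN likewise gave 0.49 and -0.77 at its other probe, PROSER2 0.97 and -0.97, RASAL2 0.90 and -0.32, and both further NCOA7 probes gave 0.70 and 0.77 in SkBr3 and -0.40 and -0.30 in BT474. The second DNMT3A probe gave -0.22 and -0.68 and the second TUBB4A probe -0.26 and -0.62, so that neither was higher in SkBr3/Lap. Of 15 probes that were not well above background on at least 1 array, 12 kept both directions. The exceptions were 1 probe of GBP1 and 2 of NLRC5, whose measured signals were higher in BT474/Lap.

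**Figure D4:**
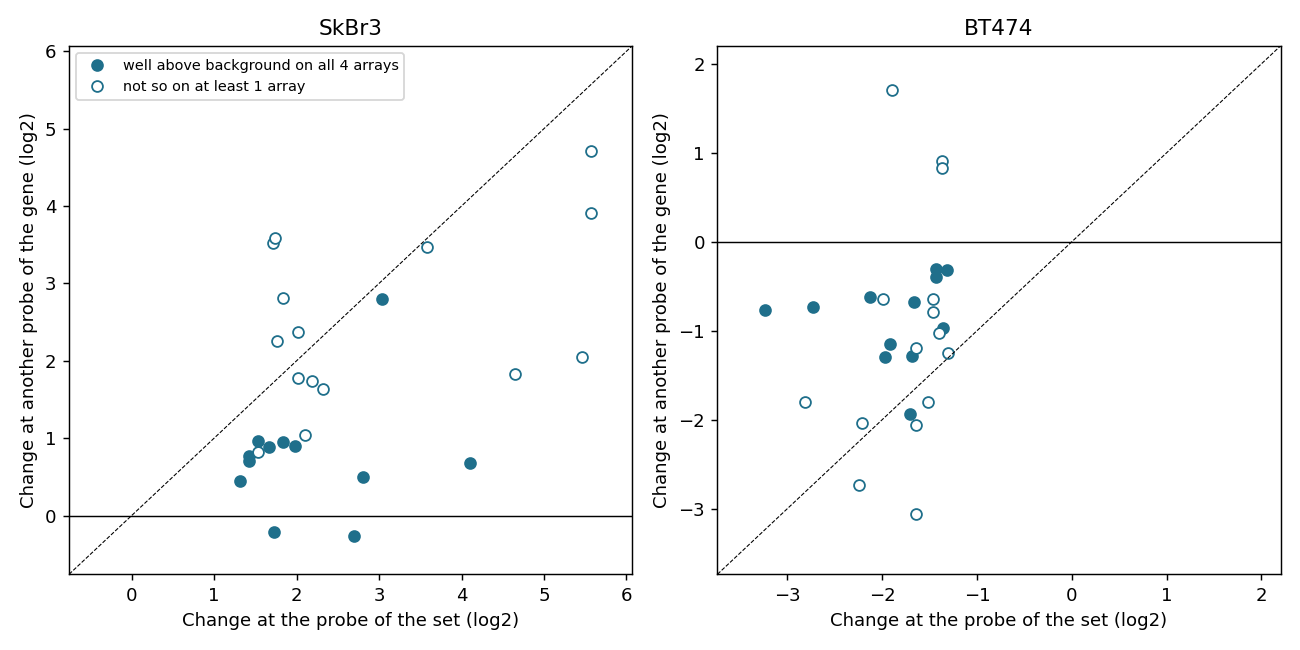
Change at each of the 27 other probes of these genes (vertical axis, log2) against the change at the gene's probe in the set (horizontal axis, log2), SkBr3 on the left and BT474 on the right. Filled circles were well above background on all 4 arrays and open circles were not on at least 1, so that an open circle shows a measured signal only; on the dashed line both probes would give the same change, and most filled circles lie closer to 0 than it.

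Other genes of the pathways named above were counted from lists, at a limit of 2-fold, with 1 probe per gene. Of all 11517 genes, 10.2% were at least 2-fold higher and 12.7% lower in SkBr3/Lap, 6.08% were higher and 4.62% lower in BT474/Lap, and 93 (0.808%) were higher in SkBr3/Lap and lower in BT474/Lap. In the ATF4 stress response list, 12 of 19 genes were at least 2-fold lower in BT474/Lap and none higher, with a median of -1.68, whereas in SkBr3/Lap 3 were at least 2-fold higher and none lower, with a median of 0.05. VLDLR and PSAT1 were the genes of this list past 2-fold in opposite directions. PSAT1, a serine synthesis enzyme, measured 1.91 and 2.92 in SkBr3 and 4.30 and 2.04 in BT474. ASNS, asparagine synthetase, measured 4.87 and 4.80 in SkBr3 and 6.72 and 4.13 in BT474, with a SkBr3 change of -0.07. SLC7A11, the cystine transporter, changed by 0.04 and -3.50, CHAC1, which degrades glutathione, by -0.07 and -2.36, and DDIT3, the stress factor CHOP, by 0.86 and -2.11. SLC7A5, an amino acid transporter, changed by 1.47 and -0.20, PHGDH, another serine synthesis enzyme, by 0.89 and -1.68, and SESN2 by 0.60 and -1.87. At any size, 12 of the 19 genes were higher in SkBr3/Lap and lower in BT474/Lap, compared with 3152 of all 11517 genes. When arrays were scaled to their medians the count was 17 of the 19. That scaling moved every change by 0.16 in SkBr3 and -0.21 in BT474, and all genes were not counted under it, so that the 17 has no background.

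In the ERK pathway output list of 17 genes, 6 were at least 2-fold higher and 3 lower in SkBr3/Lap, and 2 were higher and 7 lower in BT474/Lap, with medians of 0.44 and -0.95. ETV4 and DUSP6 were past 2-fold in opposite directions. DUSP6, a phosphatase of ERK, measured -3.44 and -2.15 in SkBr3 and 1.55 and -0.53 in BT474, and missed the set by a SkBr3 change of 1.29. PHLDA1 changed by 4.54 and -0.95 and DUSP5, another ERK phosphatase, by 2.46 and -0.99, whereas EGR1, an immediate early gene, was lower in both clones, by -2.82 and -2.96. Of 11 genes of ERBB receptors and ligands, 3 were at least 2-fold higher and 6 lower in SkBr3/Lap, with a median of -1.16. None was higher and 3 were lower in BT474/Lap, with a median of -0.25. EGFR was the one past 2-fold higher in SkBr3/Lap and lower in BT474/Lap, while ERBB2 changed by -1.90 and -0.65 and ERBB3 by -0.14 and 0.61.

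**Figure D5:**
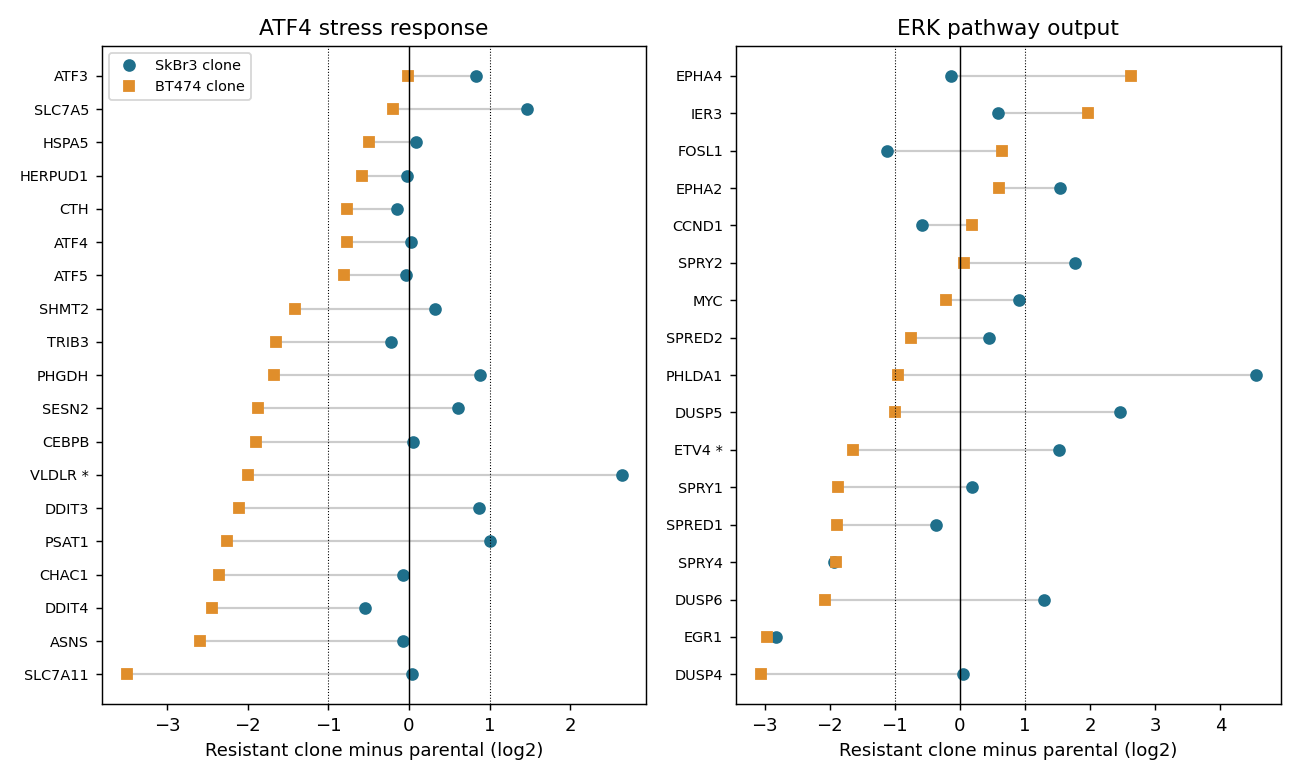
Change in SkBr3/Lap (blue circles) and BT474/Lap (orange squares), each against its parental cells (log2), for the 19 genes of the ATF4 stress response list on the left and the 17 genes of the ERK pathway output list on the right; stars mark VLDLR and ETV4, which belong to the set. Dotted lines mark 2-fold; on the left, 12 orange squares lie beyond -1 while most blue circles lie near 0.

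The p53 target list (23 genes) held GDF15 and TNFRSF10B, and had medians of -0.02 and 0.04. Of the 23 genes, 7 were higher in SkBr3/Lap and lower in BT474/Lap at any size, near the share over all genes (3152 of 11517). The count was 9 when arrays were scaled to their medians, a setting under which all genes were not counted. PMAIP1 changed by 3.68 and -0.83, PLK2 by 2.32 and -0.90 and SESN2 by 0.60 and -1.87, whereas CDKN1A changed by 0.05 and 0.07 and MDM2 by -0.32 and 0.28. In the list of death receptors and apoptosis genes (22 genes), TNFRSF10A, the TRAIL receptor DR4, changed by -0.27 and -0.76, and TNFSF10, the TRAIL ligand, by -1.83 and 3.52, the reverse of TNFRSF10B. None of 18 NF-κB targets was past 2-fold in opposite directions of this kind. Since 0.808% of all genes were, a list of 18 is too short to read a result from this. In SkBr3/Lap 9 of the 18 were at least 2-fold higher and 2 lower, compared with 10.2% and 12.7% of all genes. In BT474/Lap 3 were higher and none lower, compared with 6.08% and 4.62%. VIM was the gene of the mesenchymal list (13 genes) with this pattern, NLRC5 that of the MHC list (14 genes), and MUC1, PRLR and CDC20 were single genes of the epithelial, estrogen response and proliferation lists. Altogether 11 listed genes were past 2-fold in this pattern, where 93 of all 11517 genes (0.808%) were. Some genes are on several lists and the distinct listed genes were not counted, so that the 11 gives no share.

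The 53 genes lay on 21 chromosomes, with at most 5 on one. PGPEP1 and GDF15 were the only pair next to each other, on chromosome 19, and changed by 5.57 and -1.47 and by 4.26 and -5.98. FADS2 and RAB3IL1 lay 2 places apart on chromosome 11, with FADS3 between them, which changed by 3.78 in SkBr3 but by 0.22 in BT474. FADS1, on the other side of FADS2, was not well above background in parental SkBr3, and measured 3.04 and 2.22 in BT474 at its brighter probe. MARS1 lay beside DDIT3 on chromosome 12. Of 65 neighbouring genes outside the set, 11 were at least 2-fold higher and 4 lower in SkBr3/Lap, and 5 were at least 2-fold lower in BT474/Lap. Higher in SkBr3/Lap and lower in BT474/Lap were 2, MARK1 beside C1orf115 (3.43 and -1.13) and NALF2 beside PJA1 (3.30 and -1.28). Over all 11517 genes the shares were 10.2% higher and 12.7% lower in SkBr3/Lap, 4.62% lower in BT474/Lap, and 0.808% in this pattern. The difference was not tested.

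The members nearest to the limit, by the smaller of their changes, were MRAS (1.303), GDF11 (1.31), RASAL2 (1.31) and EGFR (1.32). Just outside lay GNA12, FTH1, DUSP6 and TMCC3. GNA12, a G protein subunit, stood at -1.92 and -0.23 in SkBr3 and at -1.42 and -2.71 in BT474, with changes of 1.69 and -1.298. FTH1, the ferritin heavy chain, stood at 2.17 and 3.46 in SkBr3 and at 5.51 and 4.16 in BT474, with changes of 1.29 and -1.35. TMCC3 stood at -2.14 and -0.86 in SkBr3 and at -3.76 and -5.61 in BT474, with changes of 1.28 and -1.85, and the DUSP6 changes were 1.29 and -2.08. The gap between these groups was smaller than the spot error of a difference, 0.10. In 16 of the 53 genes the lowest of the 4 signals was under 50, among them KLHDC7B, MYCN, LAMP3, SOX11, ETV4, VIM and SPON2. The other 37 genes were above this signal on every array.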

How the data were processed

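Total RNA of 4 cell populations was measured on 1 Agilent 44K array each. Per the file headers, the authors' scanner files came from Feature Extraction 10.1.1.1 with a single Cy3 channel, and the deposited processed intensity is background-subtracted and detrended within each array but not normalized between arrays. The spot flags (other values), also per the file headers, mark signal well above background and outliers. The deposited log2 table was shifted per array and centred per probe by the authors, with scale, centring and direction not stated. Its column medians were 0.12, -0.20, 0.11 and -0.05. Differences between its arrays matched those of log2 signal minus the 75th percentile, with deviations of up to 0.62 at single probes, which settles scale and direction and leaves the centring value of each probe unknown. The study's methods name another software version, 2 dyes and LOWESS, which these files do not show.

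Here, spots of one probe were averaged as log2 processed intensity and the 75th percentile of the array was subtracted. Names came from the RefSeq table (GRCh38.p14) through the accession of each probe. For a gene with several probes, levels came from the brightest of its probes in the set, and list counts from its brightest probe well above background. All values were computed with Python 3.11.15, numpy 2.4.6 and pandas 2.3.3, and normexp and quantile normalization with limma 3.58.1 in R 4.3.3. The selection was run on simulated data with planted changes above the limit, which checks the calculation only and not the genes of the set. With 1 array per group, arrays limit the precision and no test was run. Members, role groups and lists were chosen with earlier results of these data known. All values were given for the 15 members with the largest smaller change, the 5 of highest mean signal, those with several probes, those on a list, and the 4 nearest the limit on each side.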

Additional observations from a re-analysis of the deposited data

Results flagged for a closer look

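The 53 genes were higher in the SkBr3 clone and lower in the BT474 clone than in their parental cells, and 94 genes showed the reverse at the same size, so that the clones moved in opposite directions for both. With 1 array per group this difference was not tested, and the selection fixed its direction in the 53 genes.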

How the results depend on the processing

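No change of any of the 60 probes turned its sign under 7 alternatives of scaling and background (0 of 120 values under each, or of 119 when outlier spots were left out). The probes were chosen for changes of at least 1.3 on the same arrays, so that kept signs are no independent result. One alternative, the deposited table, has the differences of the main scaling apart from single probes. The size of the set depended on the alternatives. Scaling to the median of each array moved all changes by 0.16 in SkBr3 and -0.21 in BT474. It gave 97 probes, 87 genes, 603 BT474 decreases and medians of 2.47 and -2.04 over the set, and all 53 genes were among the 87. Under it 22 listed genes were at least 2-fold higher in SkBr3/Lap and lower in BT474/Lap. The 75th percentile over probes well above background gave a BT474 median of -1.73 and 42 genes, all shared. Quantile normalization gave medians of 2.21 and -1.97 and lost COL9A3, EGFR, MARS1, PROSER2 and SPON2. Normexp with quantile normalization gave 35 genes, 33 of them shared, medians of 1.91 and -1.67 and 6 listed genes past 2-fold in these opposite directions. All genes were not counted in this way under either setting, so that the 22 and the 6 have no background. Adding 16 to the signal gave a SkBr3 median of 2.17 and 44 genes. Without a background filter there were 114 probes, 102 genes and 1771 SkBr3 increases. A limit of 1.0 gave 133 probes, 119 genes, 1597 increases and 755 decreases, and a limit of 1.6 gave 35 genes and 235 decreases. The mean over all probes of a gene gave medians of 2.10 and -1.73 and could not give values for single probes. Leaving out outlier spots lost LASP1, and the deposited table kept all 53 genes. A signal of at least 50 on all arrays, chosen after seeing the data, kept 37 genes. The cause of these differences was not tested, beyond what each setting changes by construction. No paired analysis was possible because the groups share only replicate number 1.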
